A study of Mus musculus with 7 samples.

Results

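The dystrophin-associated complex spans the muscle membrane, and 9 of its genes were taken by name from the 21938 protein-coding genes of GENCODE M21: Dag1, Dmd, Utrn, Sgca, Sgcb, Sgcd, Sgce, Sntb1 and Dtna. For each gene, MACS peaks were collected over the gene body and 3 kb around every annotated transcript start, in 4 ATAC-seq libraries and 3 CUT&Tag libraries. All coordinates are on mouse build mm10 (GRCm38) and are counted from 1.

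The libraries came from mouse muscle stem cells (MuSCs), the resident stem cells of skeletal muscle. ATAC-seq reads where a transposase can enter the chromatin. It was done on hind limb MuSCs in 2 Control and 2 TRF2KO libraries, titled 0 h and carrying no injury label. The study deleted floxed TRF2 (gene Terf2) with Pax7CreERT2, a tamoxifen-inducible recombinase that acts only in cells expressing Pax7, so any cell that escaped recombination stays in the TRF2KO libraries. The TRF2KO libraries are labelled Wildtype in their genotype field, and the titles set their group. In CUT&Tag an antibody brings the transposase to the sites of 1 protein. It was done with a TRF2 antibody in 2 libraries and with rabbit IgG in 1. These carry the genotype label Wildtype, and the methods name control Pax7gCre/gCre;TdTomato fl/fl mice. Their label reads tibialis anterior at 3 days after injury with notexin, a myotoxin. The methods name a shorter time and the gastrocnemius as well, so time and muscle are uncertain, and the catalogue numbers of the TRF2 antibody in label and methods differ. The TRF2 libraries are thus from injured muscle and the ATAC-seq libraries are not labelled as injured, and binding and accessibility were never measured in the same cells.

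Dystroglycan, the product of Dag1, is cut into an outer subunit that binds laminin and a membrane subunit that binds dystrophin (Dmd) or its relative utrophin (Utrn), which connect to actin. The sarcoglycans (Sgca, Sgcb, Sgcd, Sgce) form a membrane subcomplex beside dystroglycan, and syntrophins (Sntb1) and dystrobrevins (Dtna) hold signalling proteins to its inner face. Loss of dystrophin causes Duchenne muscular dystrophy, and in MuSCs the complex takes part in cell polarity and asymmetric division.

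The 4 ATAC-seq lists held 84102 to 100521 MACS peaks, the TRF2 lists 12290 and 15479 and the IgG list 656. The background pileup per position, which follows depth, was 4.56 in Control replicate 2 and 3.35 to 3.41 in the other 3 ATAC-seq libraries. At the start of Terf2, the targeted gene, the Control ranks were 90.1 and 91.5 and the TRF2KO ranks 74.95 and 73.3. Here and below, the rank of a peak is the percentile of its fold enrichment among all MACS peaks of its own library, where 100 is the highest fold. All 8 MuSC markers had a start-site peak in all 4 ATAC-seq libraries, and none of 4 haematopoietic markers had one in any library. Of all 21938 coding genes, 13903 had such a peak in all 4 libraries and 6739 had one in none. A peak in all 4 was also present at 2 of 4 endothelial, 1 of 3 fibro-adipogenic and 2 of 6 myofibre markers, and the part of such cells in the results was not tested. The study's sort kept cells positive for α7-integrin and VCAM (or CD34) and removed those carrying CD31, CD45, CD11b or Sca1.

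The sequences below carry the main contrasts among the members. The first is the 300 bases before the Dag1 starts, the only member start with a TRF2 peak in both libraries. The next 2 are the 300 bases before the first annotated start of Dmd and before its strongest internal start. Capitals mark any of 4 motifs searched on both strands: the E-box CAGCTG, the GC box GGGCGG, a single telomeric unit TTAGGG, and the G-quadruplex (G4) motif, which is GGG or longer in 4 runs that are spaced by 1 to 7 bases. A GC box can lie inside a G4 motif.
Dag1, chr9:108263959-108264258, minus strand: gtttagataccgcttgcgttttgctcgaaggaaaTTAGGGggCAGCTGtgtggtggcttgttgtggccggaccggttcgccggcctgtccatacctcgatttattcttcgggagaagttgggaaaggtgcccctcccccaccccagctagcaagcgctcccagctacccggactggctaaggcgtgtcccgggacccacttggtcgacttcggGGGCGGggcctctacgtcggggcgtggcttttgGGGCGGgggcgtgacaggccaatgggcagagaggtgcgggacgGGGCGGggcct
Dmd first start, chrX:82948570-82948869, plus strand: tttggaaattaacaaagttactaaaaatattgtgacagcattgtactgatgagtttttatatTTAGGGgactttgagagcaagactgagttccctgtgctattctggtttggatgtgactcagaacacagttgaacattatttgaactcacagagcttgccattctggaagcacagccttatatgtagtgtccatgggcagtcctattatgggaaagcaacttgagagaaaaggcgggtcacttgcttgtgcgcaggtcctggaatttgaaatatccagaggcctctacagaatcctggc
Dmd internal start, chrX:85047995-85048294, plus strand: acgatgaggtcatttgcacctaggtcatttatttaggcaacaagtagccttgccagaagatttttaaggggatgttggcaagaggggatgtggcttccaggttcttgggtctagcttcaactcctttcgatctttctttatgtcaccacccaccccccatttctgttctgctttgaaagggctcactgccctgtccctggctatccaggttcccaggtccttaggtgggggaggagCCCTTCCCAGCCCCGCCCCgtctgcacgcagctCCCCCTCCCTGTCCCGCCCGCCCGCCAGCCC

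The Dag1 sequence held 3 GC boxes, 1 E-box and 1 TTAGGG and no G4 motif, and 64.7% of its bases were G or C. Its E-box and TTAGGG lie outside the TRF2 peaks of both libraries. The 300 bases centred between the TRF2 summits at Dag1, chr9:108263812-108264111, held 3 GC boxes and none of the other motifs, at 74.0% G or C. The first Dmd start held 1 TTAGGG and none of the other motifs, at 42.0% G or C. The internal Dmd start held G4 motifs in both runs of capitals, with 3 GC boxes, at its end nearest the start, at 57.0% G or C. Over the 13903 coding genes with a start-site peak in all 4 ATAC-seq libraries, 57.9% of such 300-base windows held a GC box, 26.4% a G4 motif, 14.3% the E-box and 12.0% a TTAGGG unit. The median share of G and C was 57.7%. No window of these 13903 held 3 TTAGGG units in tandem.

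TRF2 peaks of both libraries also met at 4 places away from the starts, and 300 bases centred between the summits of both peaks are shown for 3 of them on the strand of the member, with the same capitals. The first 2 lie in introns of Utrn. The third lies before the Sgce start and inside an intron of Peg10, the neighbouring gene that is transcribed the other way.
Utrn, chr10:12821305-12821604, minus strand: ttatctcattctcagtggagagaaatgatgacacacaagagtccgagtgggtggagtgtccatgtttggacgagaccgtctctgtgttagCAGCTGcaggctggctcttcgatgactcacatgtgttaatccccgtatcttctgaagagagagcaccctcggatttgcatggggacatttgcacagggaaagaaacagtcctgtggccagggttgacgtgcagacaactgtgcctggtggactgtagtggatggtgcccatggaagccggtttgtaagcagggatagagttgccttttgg
Utrn, chr10:12694868-12695167, minus strand: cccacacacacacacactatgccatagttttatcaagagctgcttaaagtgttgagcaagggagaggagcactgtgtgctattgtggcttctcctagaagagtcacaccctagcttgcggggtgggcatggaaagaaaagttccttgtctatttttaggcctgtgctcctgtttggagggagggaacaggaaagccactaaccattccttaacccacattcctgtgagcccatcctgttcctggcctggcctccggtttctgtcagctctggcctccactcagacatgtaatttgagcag
Peg10 intron beside Sgce, chr6:4749024-4749323, minus strand: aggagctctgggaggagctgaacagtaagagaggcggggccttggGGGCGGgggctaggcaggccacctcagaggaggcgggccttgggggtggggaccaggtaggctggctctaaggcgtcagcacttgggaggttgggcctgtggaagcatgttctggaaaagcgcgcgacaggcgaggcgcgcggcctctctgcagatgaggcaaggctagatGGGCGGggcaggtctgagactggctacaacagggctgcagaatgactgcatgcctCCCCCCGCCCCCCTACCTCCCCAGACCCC

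The first Utrn window held 1 E-box, the second held none of the motifs, and the Peg10 window held 3 GC boxes and a G4 motif. Among 7408 windows of this length around TRF2 summits in both libraries, 54.4% held a GC box, 24.3% a G4 motif, 21.8% the E-box and 9.69% a TTAGGG unit. A run of 3 TTAGGG units in tandem was in 30 of the 7408 (0.405%). The fourth window, in an intron of Sgce at chr6:4735601-4735900, was a CA repeat, with 62.3% of its bases in runs of at least 3 CA or TG units. Its first 60 bases on the minus strand show the pattern.
Sgce intron, chr6, first 60 bases: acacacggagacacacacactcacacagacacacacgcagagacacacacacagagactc
Such runs covered 25% or more of the window at 142 of the 7408 TRF2 summits (1.92%).

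Dag1 had the highest start-site rank of the 9 genes. The rank was taken at the annotated start cluster with the highest mean rank, from the strongest peak within 500 bp of it. Dag1 lies on chromosome 9, minus strand, at 108204634 to 108263958, and all its annotated starts fall within 108263709 to 108263958. The start-site peak had a fold of 93.2 and 90.2 in Control replicates 1 and 2 and of 110 and 102.1 in TRF2KO replicates 1 and 2. At its summit 404, 500, 481 and 449 tags overlapped in that order, where a tag is a read or a fragment, which the sources do not state. The ranks were 96.1 and 97.4 in Control and 97.0 and 96.9 in TRF2KO, a mean of 96.7 ± 0.890 (SD, n = 2) against 97.0 ± 0.0933 (SD, n = 2). The genotypes overlapped in rank, with p = 1 by the exact two-sided permutation test. With 2 libraries against 2 there are 6 assignments and no p below 0.3333 can be reached, for any gene here. The labels do not say whether libraries came from separate animals, so these values measure only the spread between libraries.

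TRF2 was found at the Dag1 start in both CUT&Tag libraries. The peak of replicate 1 spanned 108263821 to 108264123 with a fold of 8.07 and 15 tags at the summit over a background of 0.983. The peak of replicate 2 spanned 108263864 to 108264172 with a fold of 6.15 and 10 tags over 0.789. They ranked at 88.6 and 60.9 among the TRF2 peaks of their libraries. The IgG library had no peak in the window of Dag1 or of any other member. Its list held only 656 peaks genome-wide, so this lack says little about single TRF2 peaks. The 2 TRF2 libraries give small counts, and a missing TRF2 peak elsewhere says that none passed the threshold at this depth.

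**Figure D1:**
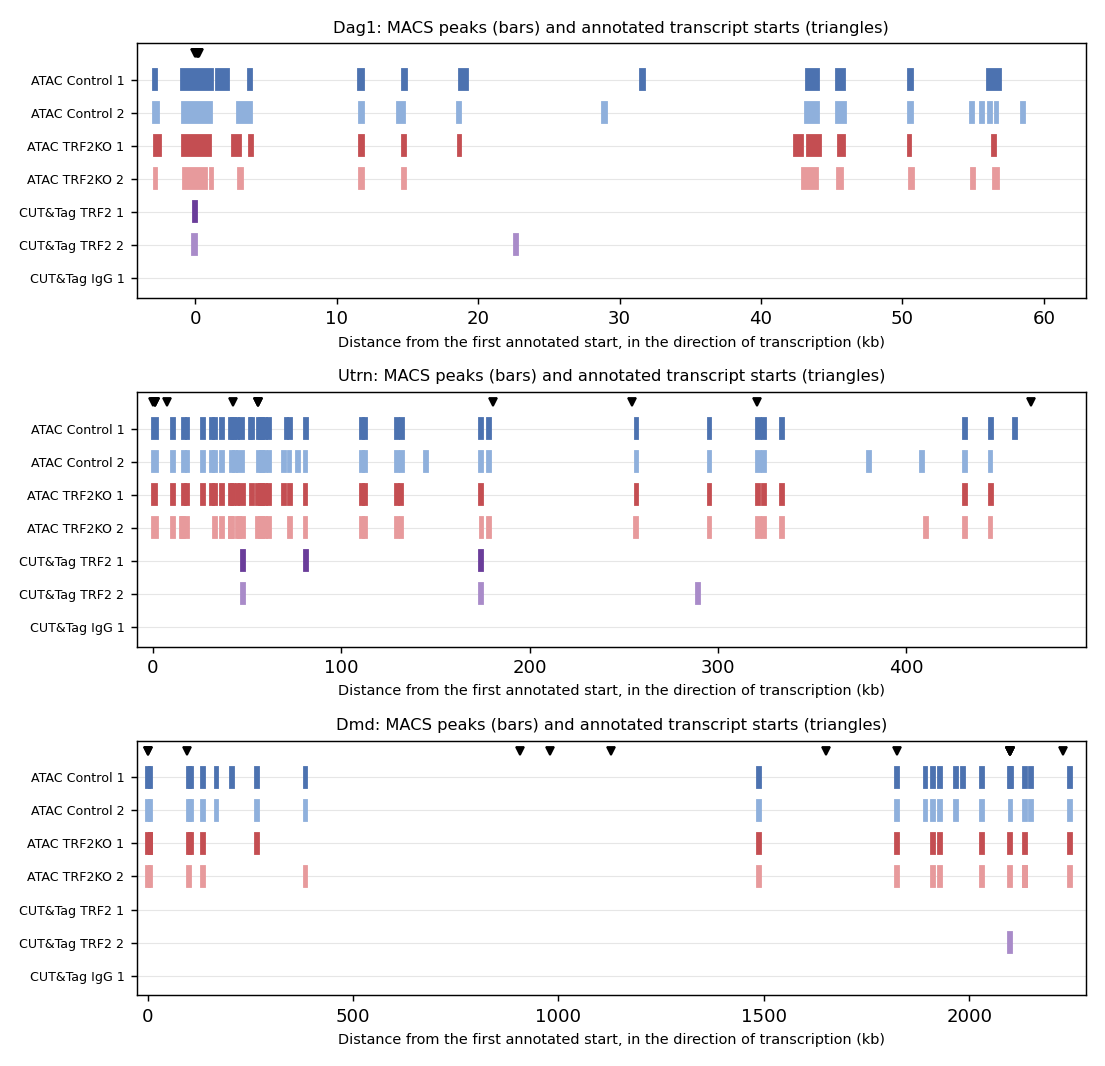
MACS peaks of the 7 libraries along Dag1, Utrn and Dmd, by distance from the first annotated start in kb, in the direction of transcription. Each row is a library, bars are peaks (narrow ones widened to stay visible), and triangles are annotated transcript starts. TRF2 peaks of both replicates meet at the Dag1 start and at 2 places inside Utrn, and Dmd has a stretch of 1103 kb with no ATAC-seq peak in any library.

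Dag1 was the only member with TRF2 within 500 bp of an annotated start in both libraries, 1 of 9 members. Across coding genes with a start-site peak in all 4 ATAC-seq libraries the share was 38.0%. That share was higher at higher ATAC ranks. With these genes in 5 classes of equal size by mean rank, it was 80.9%, or 2250 of 2781 genes, in the highest class, which holds Dag1. Utrn and Sgca are in class 3 at 33.5%, Dmd, Sgcb and Sgce in class 2 at 17.4%, and Sntb1, Dtna and Sgcd in class 1, the lowest, at 4.71%. TRF2 replicate 2 alone had start-site peaks at 4 members, namely Dag1, Dmd, Sgcb and Sntb1, and replicate 1 alone had one at Dag1 only. Within 3 kb of a start, Sgce joined Dag1, through the Peg10 intron.

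Of 16 merged ATAC-seq regions in the Dag1 window, 9 had a peak in all 4 libraries, and in 5 of these 9 both TRF2KO ranks lay below both Control ranks. The background for that call was 44.1% of the 61610 regions in all 4 libraries genome-wide. The intronic region at 108219740 to 108221604, 43.3 kb into the gene, ranked at 71.2 and 72.1 in Control and 63.4 and 64.5 in TRF2KO. The neighbouring region at 108217965 to 108218648, which overlaps an exon, ranked at 69.7 and 76.4 in Control and 55.03 and 61.97 in TRF2KO. The largest difference in Dag1, a fall of 26.5 percentile points, was at 108213168 to 108213581 in an intron. Its folds were low, at 7.13 and 5.76 in Control and 3.89 and 3.63 in TRF2KO. TRF2 replicate 2 had a second peak in Dag1, at 108241135 to 108241406 in an intron, with a fold of 4.51 and no ATAC-seq peak.

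The 3 coding genes closest to Dag1 in start-site rank over the 4 ATAC-seq libraries were Rpl36al and Mgat2, at a Euclidean distance of 0.194 percentile points each, and Atn1 at 0.269. Rpl36al and Mgat2 have the same 4 ranks. All 3 had TRF2 peaks in both libraries at a start, where the share in the highest rank class, which holds Dag1, was 80.9%.

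Dmd is the longest member, at 2257 kb on chromosome X, and had 22 and 19 ATAC-seq peaks in Control and 15 and 14 in TRF2KO. Both TRF2KO counts lay below both Control counts, a mean of 14.5 ± 0.707 against 20.5 ± 2.12 (SD, n = 2 each; p = 0.3333, exact permutation test). Dmd was the only member of which this held, and the share among 2119 coding genes with 10 or more merged regions, a class of 5 members, was 34.8%. GoPeaks, another caller, gave 15 and 15 regions against 14 and 12, and SEACR gave 2 and 1 against 3 and 2. Merged regions were sparse, at 0.929 per 100 kb, which is percentile 17.0 of 2492 coding genes of 100 kb or more, whose median was 4.55. A stretch of 1103 kb between 83333663 and 84436636 held no ATAC-seq peak in any library and 3 annotated start clusters.

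Of 9 start clusters of Dmd, 3 had a peak, in all 4 libraries each. The first start at 82948870, from which full-length dystrophin is made, ranked at 78.95 and 81.9 in Control and 78.1 and 75.2 in TRF2KO, with both TRF2KO ranks below both Control ranks. The internal start at 85048295 to 85048413, 2099 kb downstream, from which a short, widely expressed dystrophin is made, ranked at 83.2 and 85.0 in Control and 80.6 and 83.8 in TRF2KO, and the genotypes overlapped. Its folds were 34.5, 29.9, 29.3 and 33.4. The start of the retained-intron transcript Dmd-214 ranked at 26.9 and 41.5 in Control and 24.5 and 19.2 in TRF2KO. TRF2 replicate 2 had a peak over the internal start, at 85048269 to 85048623, with a fold of 4.399 and 5 tags, and replicate 1 had none in Dmd. The last run of capitals in the printed window overlaps that peak.

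Of the 12 Dmd regions in all 4 libraries, 7 had both TRF2KO ranks below both Control ranks and 1 had both above. The region with the highest mean rank away from starts, at 84860127 to 84861424 in an intron, ranked at 83.3 and 84.2 in Control and 86.2 and 83.9 in TRF2KO. The next, at 82955371 to 82956243, 6.94 kb after the first start, ranked at 60.6 and 68.3 in Control and 58.4 and 52.3 in TRF2KO. The region with both above, at 85084233 to 85085103, differed by 13.6 percentile points. The genome-wide backgrounds were 44.1% of regions for both TRF2KO ranks below both Control ranks and 8.94% for both above.

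Utrn, 487 kb on chromosome 10, had the most ATAC-seq peaks of the members, 37 and 34 in Control and 33 and 34 in TRF2KO. It had 8.77 merged regions per 100 kb, percentile 70.8 of coding genes of 100 kb or more. A single ATAC-seq region covered both of its first 2 start clusters, between 12868171 and 12869365, and ranked at 91.3 and 92.7 in Control and 92.1 and 91.1 in TRF2KO. The folds were 59.6 and 53.8 in Control and 65.9 and 57.0 in TRF2KO, and the genotypes overlapped in both measures. Neither TRF2 library had a peak there.

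Inside Utrn, 2 places had TRF2 in both libraries, and they differed in accessibility. The region at 12820679 to 12824876, 46.6 kb into the gene, had the highest rank of all member regions, at 99.5 and 99.3 in Control and 99.2 and 99.2 in TRF2KO. TRF2 folds within it were 6.57 and 6.06, with 13 and 11 tags at the summits, and the TRF2 peaks lay 5297 bases from the start of Utrn-207. The other place, at 12694820 to 12695219, had TRF2 folds of 5.77 and 6.70 in a region of middling rank, 48.4 and 51.5 in Control and 61.4 and 54.0 in TRF2KO. This region was 1 of 2 in Utrn in which both TRF2KO ranks lay above both Control ranks. The second was at 12787691 to 12788834, at 88.8 and 89.1 against 90.6 and 89.4, and carried a TRF2 peak in replicate 1 only. Replicate 2 alone had a peak at 12579879 to 12580069, where no ATAC-seq library had one.

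Of 23 Utrn regions in all 4 libraries, 18 had both TRF2KO ranks below both Control ranks and 2 had both above. The genome-wide shares were 44.1% and 8.94% of regions. The start of Utrn-207 at 12826938 ranked at 53.5 and 56.9 in Control and 32.9 and 35.4 in TRF2KO, a difference of -21.1 percentile points. Its folds were 9.90 and 8.28 in Control and 5.49 and 5.45 in TRF2KO. The region at 12795884 to 12797631 ranked at 97.1 and 96.5 against 93.8 and 94.2. The start of Utrn-206 at 12548879 differed less, at 84.6 and 85.5 against 83.9 and 84.2. Peaks at the start cluster of Utrn-202, Utrn-209 and Utrn-210, at 12813549 to 12813615, were called in TRF2KO only, at ranks of 4.22 and 12.7, and SEACR had regions there in both Control libraries.

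The 4 sarcoglycan genes ran from strongly to hardly accessible at their starts. Sgca, which encodes a sarcoglycan of striated muscle, ranked at 91.4 and 93.2 in Control and 91.5 and 90.5 in TRF2KO at the cluster of Sgca-204 and Sgca-201, 94973463 to 94973489 on chromosome 11. Its 5′-most annotated start had no peak, and the start of Sgca-203 ranked at 69.4 and 71.2 against 66.4 and 62.0. An upstream region at 94978704 to 94979971, centred at -3.01 kb from the gene start, ranked close to the main start, at 93.0 and 93.0 against 91.7 and 92.3. A region over an exon, at 94962939 to 94963276, was called in Control replicate 2 only, at a rank of 8.88. Neither TRF2 library had a peak in the Sgca window.

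Sgcb on chromosome 5 ranked at 83.3 and 83.5 in Control and 81.02 and 79.3 in TRF2KO, a difference of -3.23 percentile points with the genotypes apart (p = 0.3333 by the exact permutation test, adjusted p = 0.868 over coding genes). The folds were 34.8 and 27.0 in Control and 29.96 and 25.6 in TRF2KO, and these overlapped. TRF2 replicate 2 had a peak that began 36 bases downstream of the start, with a fold of 5.89 and 10 tags. The intronic region at 73637382 to 73638098 ranked at 46.4 and 53.2 against 39.6 and 40.3. A region before the gene, at 73650677 to 73652300, also comes within 500 bp of the start of Spata18 and ranked at 32.8 and 45.3 against 30.9 and 44.6.

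Sgcd, 1093 kb on chromosome 11, was the least accessible member. It had 1 and 2 peaks in Control and 1 and 1 in TRF2KO, and its 0.183 merged regions per 100 kb stood at percentile 5.52 of that class. The peak at the start of Sgcd-201, 47379522, ranked at 24.8 and 33.6 in Control and 26.8 and 33.5 in TRF2KO, with folds of 4.50 to 5.22, and the other 3 start clusters had none. An intronic region at 47705141 to 47705747 was called in Control replicate 2 only. No TRF2 peak lay in the Sgcd window.

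Sgce, a sarcoglycan also made outside muscle, shares its start region on chromosome 6 with Peg10. The region at 4746143 to 4749675 ranked at 89.1 and 88.4 in Control and 87.8 and 89.2 in TRF2KO. Within 500 bp of the Sgce starts alone, TRF2KO replicate 2 had a rank of 70.5, since MACS had split the region there into separate peaks. That reading gave a difference of -9.56 percentile points with the genotypes apart (exact permutation p = 0.3333). Under the same reading the difference was -0.896 without TRF2KO replicate 2 and -18.2 without TRF2KO replicate 1. Over the whole merged region, a reading added after the values were seen, it was -0.189 with all 4 libraries. TRF2 peaks at 4748988 to 4749389 had folds of 8.81 and 7.89 with 15 and 14 tags, the highest TRF2 folds of any member window, and lay 1781 bases before the Sgce starts in the Peg10 intron. The CA repeat at 4735449 to 4735953 had TRF2 folds of 5.68 and 4.399 and no ATAC-seq peak. Another TRF2 peak, in replicate 2 only, lay at 4709021 to 4709346 over an exon of Sgce, with a fold of 7.41, where the ATAC-seq ranks were 36.0 and 52.4 in Control and 34.7 and 51.3 in TRF2KO.

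**Figure D2:**
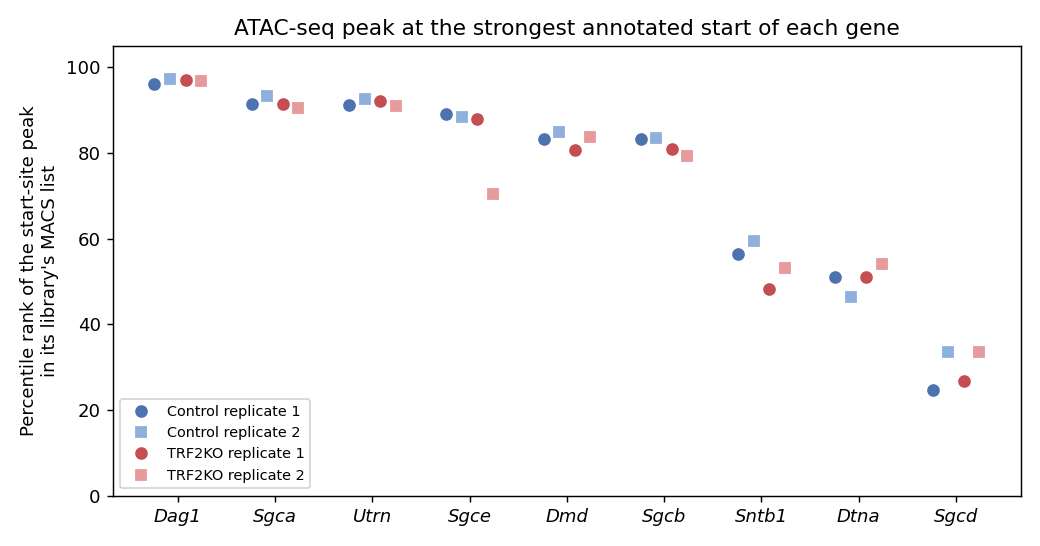
Percentile rank of the ATAC-seq start-site peak (y axis, within the MACS list of its library) for the 9 genes, with 1 point per library: blue for Control, red for TRF2KO, circles for replicate 1 and squares for replicate 2. Dag1 lies at 96.1 to 97.4 in all 4 libraries, Sgcd at 24.8 to 33.6, and the low Sgce point is the split region of TRF2KO replicate 2.

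Sntb1, the gene of beta-1-syntrophin on chromosome 15, ranked at 56.4 and 59.5 in Control and 48.1 and 53.1 in TRF2KO at its start. The means were 57.9 ± 2.16 and 50.6 ± 3.51 (SD, n = 2 each), a difference of -7.29 with the genotypes apart (p = 0.3333 by the exact permutation test). Leaving out TRF2KO replicate 1 made it -4.80. The folds were 10.8 and 8.998 in Control and 8.005 and 8.62 in TRF2KO. TRF2 replicate 2 had a weak peak there, with a fold of 3.62 and 4 tags. More of the accessibility lay far inside the gene: an intronic region at 55746257 to 55748388, 160 kb from the start, ranked at 82.4 and 87.7 in Control and 84.3 and 85.4 in TRF2KO. A region over an exon at 55647854 to 55649068 ranked at 82.7 and 82.3 against 80.8 and 82.5. In both the genotypes overlapped. Of 9 Sntb1 regions in all 4 libraries, 2 had both TRF2KO ranks below both Control ranks, beside 44.1% of regions genome-wide.

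Dtna, the gene of alpha-dystrobrevin on chromosome 18, had a modest start-site peak with ranks of 51.1 and 46.5 in Control and 50.9 and 54.0 in TRF2KO, and the genotypes overlapped. A region 1154 bases before the start, at 23413675 to 23413981, ranked higher in Control, at 68.7 and 73.6, and at 55.7 and 52.3 in TRF2KO. TRF2 replicate 2 had a peak over that region with a fold of 4.32 and 5 tags. The largest difference of any member region, -30.5 percentile points, was at 23454161 to 23454617 in an intron of Dtna. The intronic region at 23654203 to 23654798 ranked at 61.7 and 65.1 against 66.0 and 54.0.

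**Figure D3:**
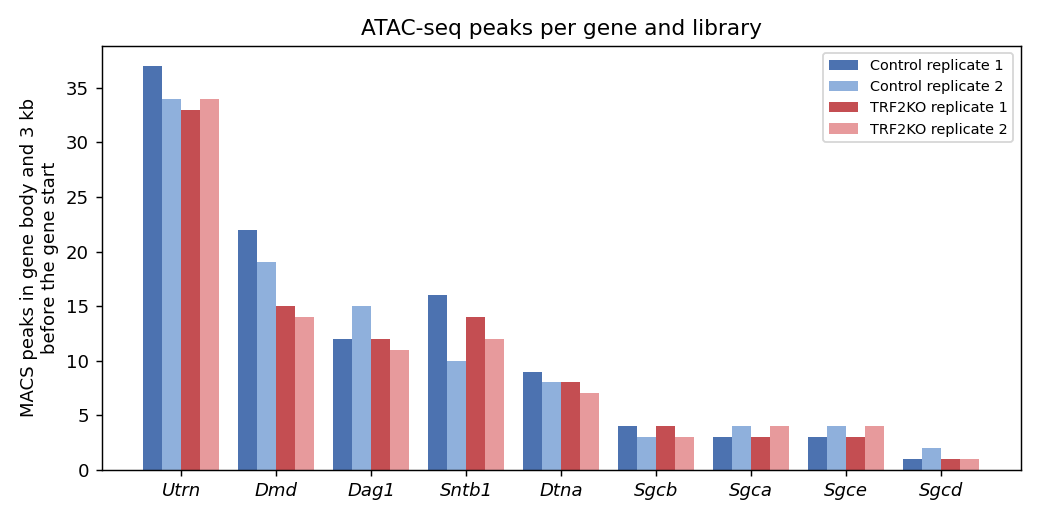
Number of ATAC-seq MACS peaks in the window of each gene (y axis), with 1 bar per library: dark and light blue for Control replicates 1 and 2, dark and light red for TRF2KO replicates 1 and 2. Utrn has 33 to 37 in every library, and Dmd has 22 and 19 in Control and 15 and 14 in TRF2KO.

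Summed over the 9 windows, the Control libraries had 107 and 99 peaks and the TRF2KO libraries 93 and 90, so both TRF2KO sums lay below both Control sums (103 ± 5.66 against 91.5 ± 2.12, SD, n = 2 each). The difference of -11.5 peaks became -7.5 without Control replicate 1. SEACR gave 27 and 16 for Control and 24 and 23 for TRF2KO, a difference of 2 in the other direction. As a share of the peaks of each list the members held 0.120% and 0.0985% in Control and 0.110% and 0.107% in TRF2KO. This difference of -0.000891 percentage points was smaller than the spread between libraries (pooled SD 0.0108).

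The peaks merged into 122 regions, of which 16 lay at a member start, 85 in introns, 17 over exons and 4 upstream. At starts 15 of 16 regions were in all 4 libraries, and in introns 41 of 85. Shares by place were not computed genome-wide, so this split is not read as a trait of the members. In all, 68 of the 122 (55.7%) were in all 4 libraries, against 50.2% of 122720 regions genome-wide. Of the 68, 40 had both TRF2KO ranks below both Control ranks and 3 had both above, where the genome-wide shares were 44.1% and 8.94%. Utrn alone gave 18 of the 40, from its 23 regions in all 4 libraries, so the count leans on 1 gene. On the deposited folds in place of ranks, 28 lay below and 7 above, against 29.9% and 18.5% genome-wide. The median rank difference was -3.77 percentile points over the 68 and -2.25 over all regions. Without Control replicate 2 the number above was 12, without TRF2KO replicate 2 it was 8, and without Control replicate 1 or TRF2KO replicate 1 it was 5.

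**Figure D4:**
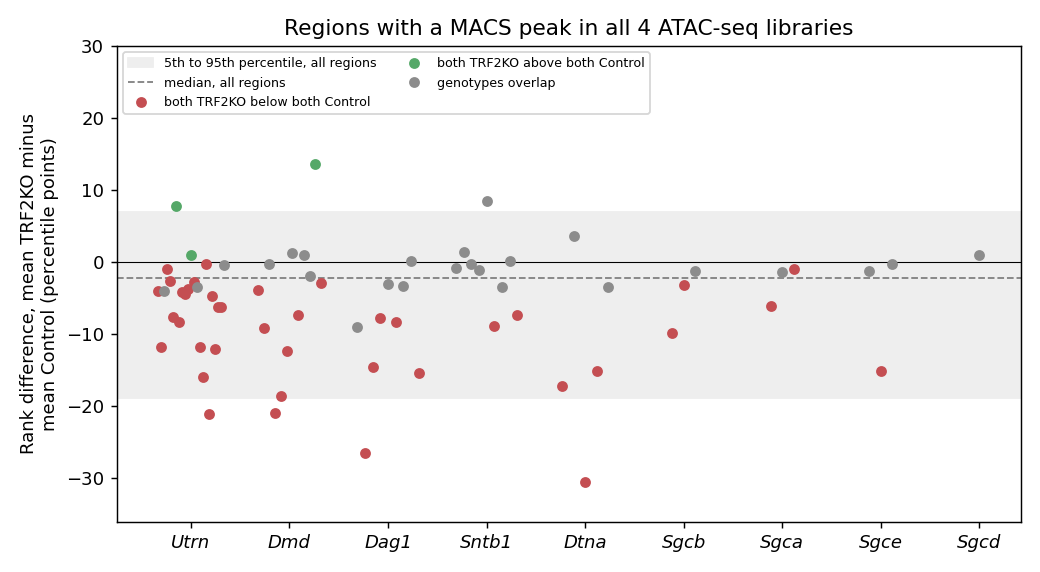
Difference in percentile rank between the means of TRF2KO and Control (y axis, percentile points) for each of the 68 member regions with a peak in all 4 ATAC-seq libraries, by gene. Red points have both TRF2KO ranks below both Control ranks (40), green both above (3) and grey overlap. The dashed line is the genome-wide median of -2.25 and the shaded band runs from -18.8 to 6.91, the 5th to the 95th percentile of all regions.

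At the start sites, 3 of 9 members (Sgcb, Sgce and Sntb1) had both TRF2KO ranks below both Control ranks and none had both above. The genome-wide shares of coding genes were 29.2% and 9.16%. Sgce is in this count through the split region. The median start-site difference was -1.32 percentile points over the members and -0.254 over all 13903 genes.

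A peak in both Control libraries and in neither TRF2KO library was found at 8 member regions, or 6.56% of the 122, against 4.48% of merged regions genome-wide. They were 4 in Dmd, 2 in Utrn and 1 each in Sntb1 and Dtna. The strongest was the Dtna region at 23560707 to 23561176, with ranks of 44.2 and 48.6, and GoPeaks had a region there in 1 TRF2KO library. The Sntb1 region at 55840204 to 55840666 ranked at 29.0 and 35.4. The Dmd regions ranked between 9.33 and 29.7 and began at 83116260, 84842221, 84915751 and 85098837. The Utrn regions began at 12812730 and 12825735 and ranked between 1.47 and 19.8, and SEACR had regions at both in both TRF2KO libraries. Of the 8, 5 had no region of any caller in TRF2KO. The Utrn start cluster named above was the single region in TRF2KO only, where the genome-wide share was 1.12%. Leaving out a library raised both counts: the Control-only count was 17 without either Control replicate and 15 without TRF2KO replicate 1, and the TRF2KO-only count was 6 without TRF2KO replicate 1, 4 without Control replicate 1, and 2 without Control replicate 2 or TRF2KO replicate 2.

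Other genes of the complex were counted from a list of 11. A start-site peak was in all 4 ATAC-seq libraries at 9 of them, beside 13903 of all 21938 coding genes. Sgcz and Sntg1 had none in any library. Both TRF2KO ranks lay below both Control ranks at 4, among them Sspn, Nos1 and Lama2, and above at 1 (Cav3), where the shares over coding genes were 29.2% and 9.16%. TRF2 peaks were in both libraries at 3 of the 11, among them Sntg2, with folds of 9.64 and 8.27, and Sspn, with folds of 5.61 and 4.198, where the share over coding genes with a start-site peak in all 4 ATAC-seq libraries was 38.0%. Sspn encodes sarcospan, a membrane protein beside the sarcoglycans, and ranked at 88.7 and 90.9 in Control and 87.9 and 87.9 in TRF2KO.

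All 16 genes listed for the glycosylation of dystroglycan, the sugar chain that lets it bind laminin, had a start-site peak in all 4 libraries. Of all 21938 coding genes, 13903 had one. Both TRF2KO ranks lay below both Control ranks at 6 and above at 2, against the same 29.2% and 9.16% of coding genes. TRF2 peaks were in both libraries at 6 of the 16, beside 38.0% of coding genes, among them Pomt2, B3galnt2, Rxylt1 and Dpm1. The highest folds were 12.8 and 15.4 at Rxylt1, a xylosyltransferase gene, which ranked at 98.7 and 98.5 in Control and 98.7 and 99.0 in TRF2KO. Pomt2, whose enzyme adds mannose to dystroglycan, had folds of 8.57 and 7.07.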

How the data were processed

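Per the study's methods, adapters were trimmed with cutadapt, reads were aligned to mm10 with Bowtie2, duplicates were removed with Picard, and properly paired unique reads were kept with SAMtools. MACS settings, a transposase shift and the use of IgG as a control are not given in the sources used here. The deposited MACS lists carry the authors' fold (a ratio of summit pileup to background) and the authors' -log10 p and -log10 q values for each peak. GoPeaks and SEACR regions, and consensus lists (not used here), were also deposited by the authors. The submitters' processing notes name MACS3 3.0.0 for CUT&Tag and 3.0.2 for ATAC-seq.

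Lists were read per library on chromosomes 1 to 19, X and Y, and no peak passed a chromosome end of GRCm38. The 9 members and the gene lists were chosen with earlier results of these data known. The text names all members, their regions in 1 genotype only and the 2 regions of highest mean rank away from starts per gene. Other list genes are named where TRF2 was at a start in both libraries, and further regions and list genes were named after their values were seen. Some list genes are counted and not reported by name here. Peaks were assigned to a gene body or 3 kb around a start when they shared at least 1 bp. Starts within 1 kb of each other made 1 cluster. Depth was recovered from the lists: a fold is (pileup + 1) over (background + 1), and the p is a Poisson tail. All of 500 peaks drawn per library with -log10 p under 200 were solved within 0.01. For start-site ranks, the group means were set against all assignments of the 4 libraries (exact permutation test, two-sided), with Benjamini-Hochberg adjustment over coding genes. The separation rule was tested on simulated ranks with a known shift. These had no difference in depth or list length between libraries, so that run says nothing about either. Sequences came from GRCm38.p6. Python 3.11.15, numpy 2.4.6 and scipy 1.17.1 were used.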

Additional observations from a re-analysis of the deposited data

How the results depend on the processing

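The precision is limited by 2 libraries per genotype and by small CUT&Tag counts, of 4 to 15 tags at the summits of member TRF2 peaks. Control replicate 2 was deeper than the other ATAC-seq libraries, and depth was not corrected beyond the use of ranks. Ranks do not remove depth, since more weak peaks in a list raise the rank of a given peak. The lists held 89160 and 100521 peaks in Control and 84776 and 84102 in TRF2KO. The part of list length in the lower TRF2KO ranks was not tested. A peak below the threshold is not closed chromatin, and IgG was a single library.

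The summed peak number differed by -11.5 in the main reading, by 2 with SEACR, and by -15.5 to -7.5 when 1 library was left out. GoPeaks, the stricter q and the gene body alone kept its direction. The difference in share ran from -0.0117 to 0.00987 percentage points when 1 library was left out. Regions with both TRF2KO ranks above both Control ranks numbered 7 on deposited folds and 5 to 12 when 1 library was left out. Those with both below stayed between 28 and 58 under every alternative run. Regions in Control only numbered 0 with SEACR, 5 where no caller had one in TRF2KO, 2 at a -log10 q of at least 5, and 10 to 17 when 1 library was left out. Regions in TRF2KO only numbered 0 with GoPeaks, with SEACR, with no caller in Control and at the stricter q, and 2 to 6 when 1 library was left out. Members with TRF2 at a start numbered 2 within 3 kb and 1 to 4 when 1 TRF2 library was left out. A count over fewer libraries is higher, and at a stricter limit lower, by construction, and other causes of these changes were not tested.

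Start-site differences changed sign for Dag1, Utrn, Sgca and Sgcd, whose genotypes overlapped. Dag1 was at -0.398 without Control replicate 1 and up to 0.860 without another library. Utrn was at 0.113 on the log2 fold, 0.310 without Control replicate 2, 0.107 without TRF2KO replicate 2 and down to -1.11 without another library. Sgca was at 0.00100 on the log2 fold. Sgcd was at -3.48 without Control replicate 1 and -2.41 without TRF2KO replicate 2, and up to 5.37 without another library. The other 5 genes, among them Dmd and Dtna, whose genotypes also overlapped, kept their direction under the alternatives that gave a value. With the replicate number as a block, the difference in peak number was -11.5, in share -0.000891 percentage points and in the Dag1 start-site rank 0.231, as without it, since a mean of paired differences equals a difference of means. With 2 pairs the sign-flip test cannot go below 0.5. The deviations of Control replicate 1 and TRF2KO replicate 1 correlated at 0.00854 across coding genes. This is 1 correlation from 1 library per genotype, so it cannot tell whether same-numbered libraries were paired.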
